A study of Mus musculus with 70 samples.

Results

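Gas1 and 8 genes of the Hedgehog pathway were followed through every group of a mouse muscle RNA-seq study. The 9 genes, of 55011 in the deposited count table, are the co-receptor genes Gas1, Cdon and Boc, the receptor gene Ptch1, the decoy receptor gene Hhip, the signal transducer gene Smo and the transcription factor genes Gli1, Gli2 and Gli3. They were chosen by name, and also because Gas1 was seen to be much lower after oncostatin M (Osm) and after a mix of cytokines. The values of Gas1 in PBS, Osm and mix libraries are therefore a description, without a test, and so are those of the other genes in the same comparisons. The 70 libraries form 28 groups in 6 experiments, mostly of muscle mesenchymal stromal cells (MmSCs), the fibroblast-like cells between muscle fibres.

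In the cytokine experiment, uninjured C57BL/6J mice were injected intraperitoneally with PBS, with Il-1b, TNFa, Osm or Il-17A alone, with Osm plus each of the others, or with all 4 together. MmSCs were sorted 2 h later, and for the mix also 4 h and 8 h later. Each group had 2 libraries except the mix at 4 h, which had 1, and the labels give no time for PBS. The compartment experiment held MmSCs, satellite cells (MuSCs, the stem cells of muscle fibres), CD31+ cells (an endothelial gate) and CD45+ cells (a leukocyte gate) of C57BL/6J mice, uninjured or 1 day after cardiotoxin, a venom toxin that kills muscle fibres (n = 3 each). Il6RD mice, which carry an Il6 reporter/depleter allele, gave MmSCs with and without the Thy1.1 tag 12 h after cardiotoxin (n = 3 each). Whole tibialis anterior muscle of C57BL/6J mice was taken 7 days after cardiotoxin and injections of anti-Cxcl5 antibody or IgG (n = 3 each). MmSCs of DMDmdx mice, which lack dystrophin, were taken without further treatment at an age of 2.5 or 7 weeks (n = 3 for either age) or 12.5 weeks (n = 2, titled 12 weeks). MmSCs of Il1b-KO mice (n = 3) and Il1b-WT mice (n = 2) were taken 1 day after cardiotoxin. The labels do not say which libraries came from separate animals, and every p-value therefore reflects only how far these samples spread, which may be technical.

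Hedgehog ligands are secreted proteins that bind Ptch1 on the receiving cell. Ligand binding lifts the block that Ptch1 places on Smo, and Smo then acts through the primary cilium to turn Gli2 and Gli3 from repressors into activators. Gas1, Cdon and Boc sit at the cell surface and help Ptch1 bind ligand, while Hhip captures ligand and limits its reach. Gli1 and Ptch1 are themselves transcribed in response to the signal and are commonly read as its output. Gas1 was first known as a gene expressed in growth-arrested fibroblasts. Cdon and Boc also take part in the differentiation of muscle cells. In skeletal muscle, Hedgehog signalling through the cilium of stromal cells is known to restrain their conversion to adipocytes.

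Of any pair of the 9 genes, Gas1 and Gli2 had the highest Pearson correlation of levels over the 28 groups. The 250 bases before their RefSeq starts (GRCm38.p6) are therefore shown. Capitals mark the CCAAT box. The Gas1 window is chr13:60177536-60177785 on the minus strand, and the Gli2 window is chr1:119053620-119053869 on the minus strand.
Gas1: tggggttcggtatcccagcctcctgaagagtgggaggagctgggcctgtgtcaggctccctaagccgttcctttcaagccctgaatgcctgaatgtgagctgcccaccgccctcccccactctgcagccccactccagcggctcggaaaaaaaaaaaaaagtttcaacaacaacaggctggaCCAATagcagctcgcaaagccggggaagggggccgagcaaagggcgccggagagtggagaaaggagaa
Gli2: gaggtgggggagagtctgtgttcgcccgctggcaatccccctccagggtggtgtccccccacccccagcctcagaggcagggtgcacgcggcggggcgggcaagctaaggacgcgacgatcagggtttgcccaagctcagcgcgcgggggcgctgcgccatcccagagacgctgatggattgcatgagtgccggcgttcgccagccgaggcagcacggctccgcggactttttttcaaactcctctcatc
The Gas1 window holds 1 CCAAT box (letters CCAAT, both strands searched), which 33.8% of 32536 promoters of that length hold, and its GC content is 58.8%. The Gli2 window holds none and has a GC content of 67.2%. Further motifs were searched on both strands: the Gli motif GACCACCCA, in 0.218% of promoters, the STAT motif TTCNNNGAA, in 7.04%, and the kB motif, in 0.36%. None of these was found in the windows of the 7 genes with a RefSeq entry (Gas1, Cdon, Ptch1, Hhip, Smo, Gli2 and Gli3). The windows of Cdon, Ptch1 and Gli3 lie within the GENCODE M21 bounds of their own genes, and that of Cdon overlaps a Cdon exon. The Gas1 gene (chr13:60174405-60177365, GRCm38, GENCODE M21) is a single exon of 2961 bases. The unnamed model Gm48488 overlaps it on the opposite strand and had between 0 and 21 counts, with 0 in 35 of the 70 libraries. Gli1 exons overlap Arhgap9 and the unnamed model Gm47200 on the opposite strand. Gli1 had at most 1 count per library in CD45+ cells, where Arhgap9 was at 200 to 260 CPM. Exons of Hhip and Gli3 overlap the unnamed models Gm27820 and Gm6556 on the opposite strand.

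Library totals ran from 2252373 to 8408842 counts. Levels are given as CPM, each count over its library total on a common scale, adjusted for composition by TMM factors between 0.782 and 1.29 within each experiment, so levels from different experiments are only set side by side. In bulk samples, fewer cells of a type and less RNA per cell cannot be told apart. Most defining markers went with the labels of the gates. In the 46 MmSC libraries the stromal marker Pdgfra was at 280 to 1093 CPM. The endothelial markers Pecam1 and Cdh5 did not exceed 4.28 and 1.34 CPM, and the leukocyte marker Ptprc 1.36 CPM. The satellite cell markers Pax7 and Myf5 did not exceed 0.458 and 0.238 CPM. Sdc4, also on the satellite cell list, did not separate the gates. It was at 197 to 6059 CPM in MmSC libraries and 1133 to 1478 CPM in resting MuSC libraries. Resting MuSC libraries, with Pax7 at 507 to 648 CPM, also held 6 mural cell markers summing to 1164 to 2000 CPM and 6 Schwann cell markers summing to 653 to 755 CPM. Il1b had 0, 0 and 1 counts in Il1b-KO libraries and 2 and 5 in Il1b-WT libraries, too few to check the deletion in these cells.

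The first comparison asked where the 9 genes were expressed in resting muscle. Gas1, Cdon and the Gli genes were low in CD31+ and CD45+ cells and higher in stromal and satellite cells, whereas Boc was also found in CD31+ cells, at 13.1, 18.2 and 14.3 CPM. Per kilobase of exon, the scale on which genes can be compared, Gas1 was the highest of the 9 in resting MmSCs, at 79.3 ± 27.2 CPM per kb (SD, n = 3), followed by Boc at 36.6 ± 2.38, Cdon at 13.7 ± 1.53, Smo at 8.16 ± 1.52, Gli2 at 6.72 ± 0.718 and Gli3 at 5.42 ± 1.11. Gli1 (2.87 ± 1.94), Hhip (1.96 ± 0.407) and Ptch1 (1.27 ± 0.328) were the lowest. In resting MuSCs the order was Gas1 at 155 ± 37.2 CPM per kb, Cdon at 31.7 ± 4.32, Gli2 at 19.8 ± 2.06 and Boc at 13.9 ± 0.369. The levels of Gli2 and Gli3 in MmSCs differed by about their SD. In MuSCs, Gli2 exceeded Gli3 (1.1 ± 0.206 CPM per kb) by far more than theirs.

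MmSCs had more Boc, Gli3 and Hhip than MuSCs, and MuSCs had more Gas1, Cdon, Gli2 and Ptch1. Of the 9 genes, 3 were higher and 4 lower in resting MmSCs than in resting MuSCs, where 40.7% of the 16374 genes tested were called (23.4% higher and 17.3% lower) at an adjusted p under 0.05. Boc was at 151, 170 and 168 CPM in MmSC libraries and at 63.5, 61.8 and 60.2 in MuSC libraries, without overlap (log2 difference 1.39 ± 0.20 SE, adjusted p = 4.84e-06). Gli3, which acts mainly as the repressor of the family, was at 41.9, 51 and 63.1 CPM in MmSCs and 8.43, 12.4 and 10.7 in MuSCs (2.32 ± 0.34, adjusted p = 6.34e-06). Hhip was also higher in MmSCs (2.61 ± 0.60, adjusted p = 0.00118). Each of these 3 genes was higher in every MmSC library than in any MuSC library. Gli2, the main activator, went the other way, at 43, 43.5 and 51.8 CPM in MmSCs and 130, 126 and 152 in MuSCs (-1.57 ± 0.30, adjusted p = 0.00019). Cdon (-1.21 ± 0.25, adjusted p = 0.000367) and Ptch1 (-1.65 ± 0.31, adjusted p = 0.000125) were likewise lower in MmSCs. Gas1 was at 147, 253 and 305 CPM in MmSCs and 518, 332 and 528 in MuSCs (-0.97 ± 0.33, adjusted p = 0.0202), a call lost without MuSC replicate 1 (adjusted p = 0.0713) or 3 (adjusted p = 0.076). Smo (0.03 ± 0.23) and Gli1 (0.32 ± 0.69) did not pass. The mural and Schwann cell marker sums were lower in resting MmSCs, at 107 to 121 and 57.9 to 60.1 CPM, than in MuSCs. Single markers were split. In MmSCs, 2 of 6 mural markers were called higher and 2 lower, and of 4 Schwann cell markers tested 1 was called higher and 1 lower. Their part in the differences was not tested.

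Against CD31+ cells, where 47% of genes were called, 8 of the 9 genes were higher in resting MmSCs and Ptch1 was lower. Gas1 was at 0.645, 5.69 and 5.07 CPM in CD31+ libraries, below every MmSC library (6.03 ± 0.47, adjusted p = 3.08e-10), and Cdon at 3.87, 1.99 and 2.98 CPM (5.11 ± 0.35, adjusted p = 3.23e-11). Ptch1 was at 29.2, 49.8 and 57.5 CPM in CD31+ cells against 14.3, 16.4 and 23.2 in MmSCs (-1.34 ± 0.31, adjusted p = 0.000901). Among the 9 genes, then, the receptor alone was more abundant in the endothelial gate. Against CD45+ cells, where 56.7% of genes were called, 8 were higher in MmSCs and Ptch1 did not pass (0.44 ± 0.32, adjusted p = 0.257). The resting CD45+ libraries held 3 counts of Boc and 2 each of Hhip, Gli1, Gli2 and Gli3 in total. Against 2375 counts in MmSCs, the depth-corrected ratio for Boc was 594 with a 95% counting interval of 203 to 2884. For Gli2 it was 253 with an interval of 69.8 to 2093. These intervals cover counting error only. The plot of levels in sorted cells shows these contrasts for the 9 genes.

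**Figure D1:**
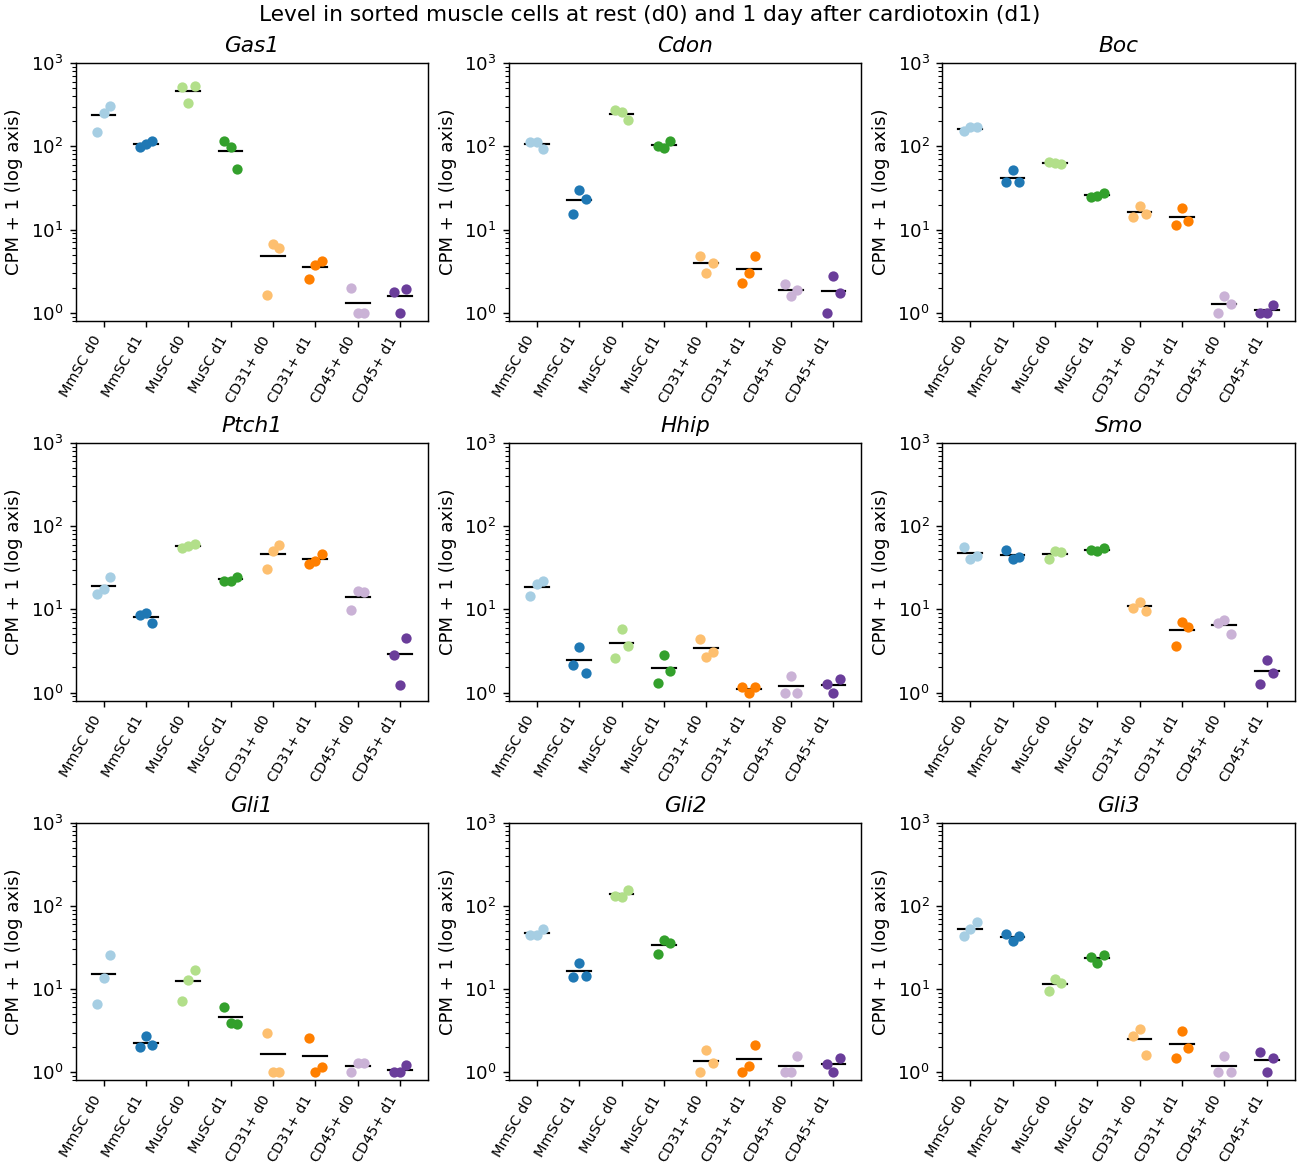
Level of each of the 9 genes in the 8 groups of the compartment experiment (x axis: cell gate and day, d0 uninjured and d1 1 day after cardiotoxin; y axis: CPM + 1 on a log axis; point: library, n = 3 per group; bar: group mean). Gas1, Cdon and Gli2 are highest in resting MuSCs, Boc, Gli3 and Hhip in resting MmSCs, and Ptch1 is at 29.2 to 57.5 CPM in resting CD31+ cells, above the resting MmSCs.

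The second comparison asked how the genes responded to injury. One day after cardiotoxin, 7 of the 9 genes fell in MmSCs and none rose, in a comparison where 41.8% of genes were called and 23.6% were called lower. The co-receptor transcripts all fell. Cdon went from 111, 113 and 91.7 to 14.4, 29.1 and 22.2 CPM (-2.27 ± 0.27, adjusted p = 4.28e-07), and Boc from 151, 170 and 168 to 36, 50.9 and 36.6 CPM (-1.98 ± 0.20, adjusted p = 5.69e-08). Gas1 went from 147, 253 and 305 to 97, 105 and 114 CPM (-1.16 ± 0.33, adjusted p = 0.00729). No injured library reached the lowest uninjured library for these 3 genes. The Gas1 call was lost without uninjured MmSC replicate 2 (-0.94, adjusted p = 0.0558) or 3 (-0.77, adjusted p = 0.0974).

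The genes read as output of the pathway also fell in MmSCs. Gli1 went from 5.61, 12.5 and 24.8 to 0.995, 1.69 and 1.1 CPM (-3.48 ± 0.80, adjusted p = 0.00121), Hhip from 13.6, 18.9 and 20.7 to 1.14, 2.54 and 0.733 CPM (-3.57 ± 0.62, adjusted p = 7.44e-05), and Ptch1 from 14.3, 16.4 and 23.2 to 7.54, 7.95 and 5.86 CPM (-1.32 ± 0.33, adjusted p = 0.00233). The uninjured and injured libraries did not overlap for any of them. Gli2 fell as well (-1.60 ± 0.31, adjusted p = 0.00027). Gli3 (-0.34 ± 0.31, adjusted p = 0.404) and Smo (-0.08 ± 0.22, adjusted p = 0.824) did not pass, and Smo stood at 39.6 to 55.6 CPM before and 39.4 to 50.2 CPM after injury. The median log2 change of the 9 genes was -1.60 and that of all genes tested -0.22. The summed level of 6 stromal markers went with these changes, from 51303 to 72401 CPM before to 16118 to 19928 CPM after injury. All 5 of the 6 muscle fibre markers that were tested were lower after injury, with sums of 132 to 381 CPM before and 2.7 to 13.5 CPM after. The endothelial sum went from 96.4 to 120 CPM down to 12.5 to 18.8 CPM, with 1 of 6 markers called lower and 1 higher, and the Schwann cell sum from 57.9 to 60.1 CPM down to 10.1 to 16.3 CPM, with 3 of 4 tested called lower. Their part in the result was not tested.

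In MuSCs, 5 of the 9 genes fell and 1 rose after injury, with 38.8% of genes called (21.4% higher and 17.4% lower). With RLE scaling the median of all genes moved by -0.099, and the split of 3501 higher and 2856 lower became 3175 higher and 3340 lower. Gas1 went from 518, 332 and 528 to 114, 96.2 and 51.7 CPM (-2.40 ± 0.34, adjusted p = 7.01e-06), and Gli2 from 130, 126 and 152 to 25.5, 37.9 and 34.5 CPM (-2.06 ± 0.30, adjusted p = 1.07e-05). Boc (-1.32 ± 0.20), Cdon (-1.25 ± 0.25) and Ptch1 (-1.37 ± 0.30) fell with adjusted p of 1.92e-05, 0.000316 and 0.000814. Gli3 rose from 8.43, 12.4 and 10.7 to 23.4, 19.8 and 24.8 CPM (1.12 ± 0.33, adjusted p = 0.0101), so that the Gli2 level fell and the Gli3 level rose in the same cells. The Gli3 call was lost without uninjured MuSC replicate 1 (0.99, adjusted p = 0.0529). Gli1, at 6.27 to 15.9 CPM before and 2.78 to 5.16 CPM after injury (-1.65), and Hhip (-1.57) did not pass in the reported fit. Gli1 did without the filter on low counts (adjusted p = 0.0272). Hhip did with DESeq2 (adjusted p = 0.0399) and without uninjured replicate 1 (adjusted p = 0.0497) or injured replicate 2 (adjusted p = 0.0274). Summed mural cell markers in these libraries were 1164 to 2000 CPM before and 497 to 999 CPM after injury (1 of 6 called lower). Satellite cell markers summed to 5569 to 6922 CPM before and 3601 to 4363 CPM after injury (5 of 6 called lower). The part of these markers was not tested. The responses of MmSCs and MuSCs, compared by an interaction term that called 7.64% of genes, differed for none of the 9 by edgeR, with 5 at an unadjusted p under 0.05 and 1 (Gli3, adjusted p = 0.00206) called by DESeq2. Values of this difference were -1.46 ± 0.45 for Gli3 (adjusted p = 0.0509), 1.24 ± 0.47 for Gas1 (adjusted p = 0.116) and -1.02 ± 0.36 for Cdon (adjusted p = 0.0862). The Gas1 difference passed without resting MmSC replicate 3 (1.77, adjusted p = 0.0304) or without the filter on low counts (adjusted p = 1.11e-05), and that of Cdon without injured MmSC replicate 2 (-1.28, adjusted p = 0.0415).

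In CD31+ cells 2 genes fell after injury, with 23.5% of genes called, 2324 higher and 1531 lower. With RLE scaling the median of all genes in this comparison moved by -0.11 and the split became 1941 higher and 2073 lower. Leukocyte marker sums in these libraries were 2.28 to 9.83 CPM before and 14.8 to 162 CPM after injury (3 of 6 called higher), and mural marker sums 569 to 803 and 305 to 495 CPM (2 of 6 called lower). Injured replicate 1 stood apart with 354 counts of Il1b, against at most 2 in the other CD31+ libraries. The part of these in the results was not tested. Hhip had 29 counts in uninjured and 2 in injured libraries, 22.3-fold lower (95% counting interval 5.64 to 193, adjusted p = 0.00173, and 0.00826 without injured replicate 1). Smo went from 9.46, 11.4 and 8.64 to 2.66, 6.11 and 5.13 CPM (-1.10 ± 0.28, adjusted p = 0.00623), a call lost without injured CD31+ replicate 1 (adjusted p = 0.0547). Boc in CD31+ cells was at 13.1, 18.2 and 14.3 CPM before and 10.3, 16.9 and 11.7 CPM after injury (-0.23 ± 0.23, adjusted p = 0.506). The drop of Boc in MmSCs was larger than this by 1.75 ± 0.30 (interaction term, adjusted p = 0.000421; 12.5% of genes called). Without injured CD31+ replicate 1 the difference was -1.89 (adjusted p = 0.000386). That of Cdon was larger by 1.93 ± 0.53 (adjusted p = 0.0191), a call lost without CD31+ replicate 2 at rest, CD31+ replicate 3 after injury, or MmSC replicate 1 or 2 at rest (adjusted p from 0.0563 to 0.18), and kept without injured CD31+ replicate 1 (-2.25, adjusted p = 0.00889). In CD45+ cells, with 34.6% of genes called (15.9% higher and 18.7% lower), Ptch1 went from 8.89, 15.5 and 15.3 to 1.8, 0.249 and 3.55 CPM (-2.79 ± 0.43, adjusted p = 2.68e-05) and Smo from 5.77, 6.43 and 4.05 to 0.258, 1.49 and 0.711 CPM (-2.68 ± 0.43, adjusted p = 4.19e-05). Smo thus fell in the leukocyte and endothelial gates. Its response in MmSCs did not pass as different from that in CD31+ cells by edgeR (1.02 ± 0.36, adjusted p = 0.068), but did with DESeq2 (adjusted p = 0.0214) and without injured CD31+ replicate 2 (adjusted p = 0.0386) or resting MmSC replicate 1 (adjusted p = 0.0255).

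The third question was what the cytokines did to these genes in uninjured MmSCs, and first how Gas1 stood across the 11 groups. Gas1 was at 116 and 111 CPM in PBS libraries and at 48.7 and 49.7 CPM 2 h after Il-17A. It was at 23.7 and 18.1 CPM after TNFa and at 11.1 and 12.4 CPM after Il-1b. Osm gave 3.44 and 8.13 CPM, a log2 change of -4.28 ± 0.48 from PBS. PBS, Il-17A and TNFa thus stood in a falling order in which neighbouring groups did not overlap. The mix gave 9.08 and 12.7 CPM at 2 h, 1.55 CPM in the 1 library at 4 h and 11.7 and 13.8 CPM at 8 h, with log2 changes from PBS of -3.38 ± 0.46, -6.17 ± 0.76 (spread assumed from the other groups) and -3.15 ± 0.44. Groups that received Osm with another cytokine lay between 3.38 and 17.2 CPM. From the mix at 8 h down to Osm, neighbouring groups in the order of means overlapped, and the single library at 4 h lay below all others. Beside these levels, the sum of 6 endothelial markers was 216 to 266 CPM in PBS and 105 to 110 CPM in Osm libraries. That of 6 mural markers was 77.5 to 85.4 and 22.2 to 29.3 CPM. Of those tested, 1 of 3 endothelial and 1 of 5 mural markers were called lower with Osm. The sum of 6 satellite cell markers went the other way, from 199 to 231 CPM in PBS to 2777 to 3089 CPM in Osm libraries (1 of 2 tested called higher). That list includes Sdc4, which did not separate the gates, while its members Pax7, Myf5 and Calcr had no counts in the Osm libraries. The stromal, leukocyte and muscle fibre lists each had 1 marker called higher and none lower. Pecam1 and Cdh5 stayed near 0, and the part of these markers was not tested.

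Cdon and Gli2, like Gas1, had their lowest library after 4 h of the mix. Cdon was at 58.6 and 75.5 CPM in PBS, 6.88 and 6.31 in Osm, and 6.36 and 11.4, 2.03, and 8.73 and 9.37 CPM after 2, 4 and 8 h of the mix. Gli2 was at 41.3 and 37.9 CPM in PBS, 4.45 and 6.87 in Osm, and 15.3 and 15.1, 2.15, and 4.66 and 3.95 CPM after 2, 4 and 8 h of the mix. For both genes the PBS libraries lay above every Osm and mix library. Log2 changes with Osm were -3.34 ± 0.39 for Cdon and -2.80 ± 0.35 for Gli2. Boc, the third co-receptor, did not go with them. It was at 286 and 290 CPM in PBS, 399 and 452 in Osm, 256 and 254, 133, and 576 and 441 CPM after 2, 4 and 8 h of the mix, which makes it higher than PBS in every Osm and 8 h library and lower at 4 h. Ptch1 was at 23.8 and 21.2 CPM in PBS, 5.02 and 8.97 in Osm, 4.39 and 3.39, 9.42, and 30.7 and 35.9 CPM in the mix.

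Of the remaining genes, Gli1 was at 10.5 and 19.6 CPM in PBS and 3.59 and 4.77 in Osm (-1.84 ± 0.40), Gli3 at 44.1 and 40.4 in PBS and 19.4 and 24.7 in Osm (-0.94 ± 0.22), and Smo at 30.4 and 30.7 in PBS and 15.2 and 21.9 in Osm (-0.72 ± 0.24). Hhip overlapped between the groups, at 5.96 and 14.4 in PBS and 11.5 and 6.31 CPM in Osm (-0.19 ± 0.58). With Osm, 7 of the 9 genes were called lower and 1 higher, where 34.3% of the 15965 genes tested were called (18.9% higher and 15.5% lower). The mix against PBS gave 6 lower at 2 h (38.5% of genes called, 18% lower), 6 lower at 4 h (36.4% called, 16.8% lower), and 5 lower and 1 higher at 8 h (28.4% called, 15.6% higher and 12.9% lower). These 4 comparisons share the PBS libraries and were those used in choosing the genes, so the counts carry no weight.

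**Figure D2:**
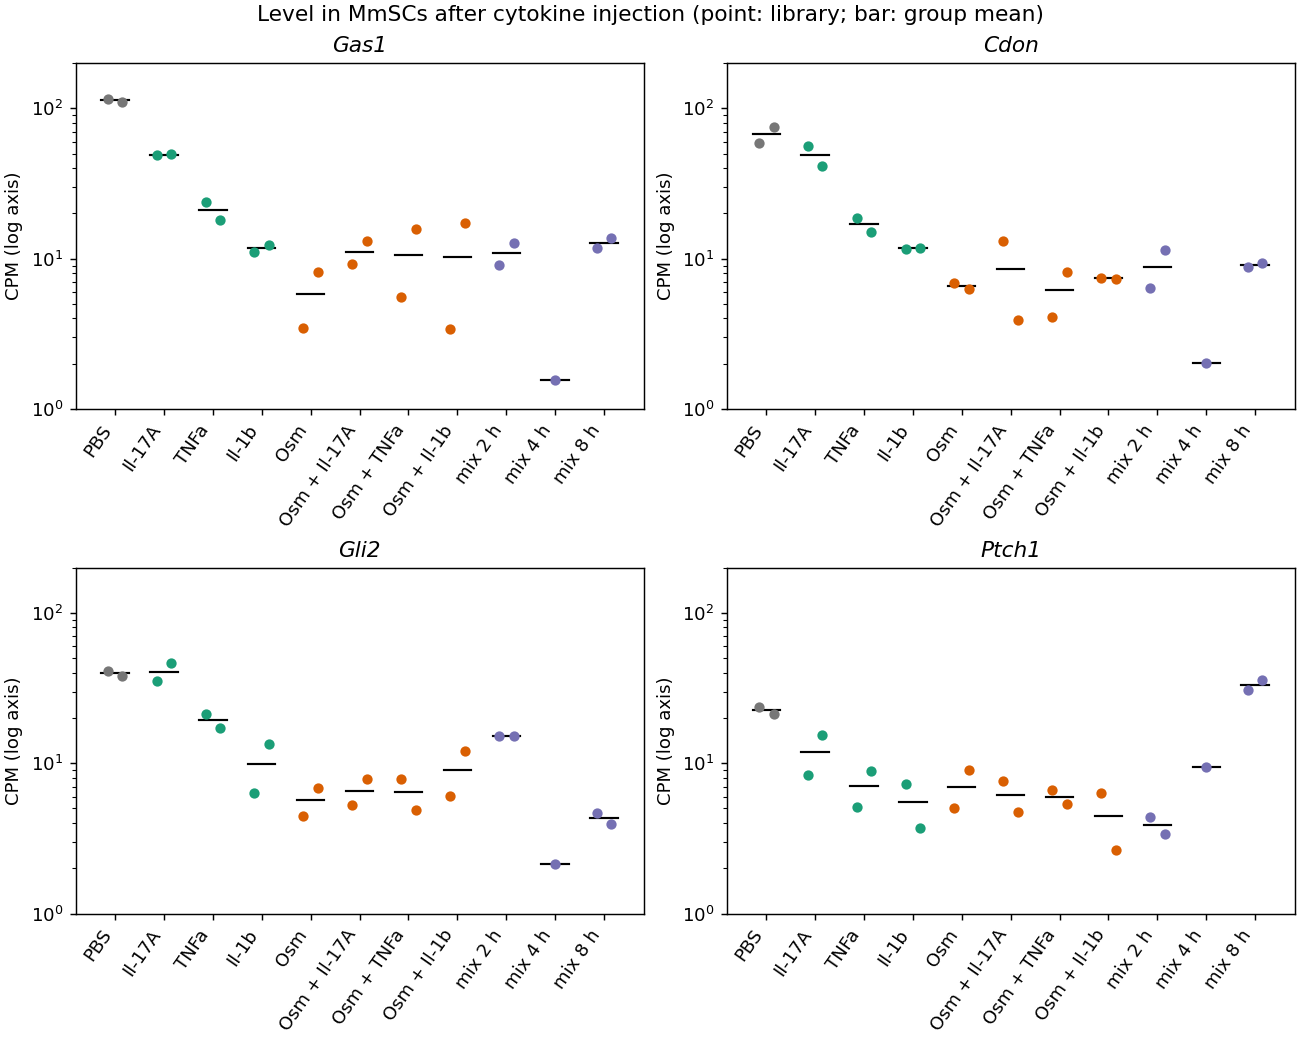
Levels of Gas1, Cdon, Gli2 and Ptch1 in MmSCs of the 11 cytokine groups (x axis: injection; y axis: CPM on a log axis; point: library, n = 2 except 1 for the mix at 4 h; bar: group mean; grey PBS, green single cytokines without Osm, orange Osm alone or in a pair, purple the mix). Gas1 steps down from PBS (116 and 111 CPM) over Il-17A and TNFa to Il-1b and the groups with Osm, and Ptch1 is above PBS after 8 h of the mix (30.7 and 35.9 CPM).

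Whether Osm adds to another cytokine was tested on libraries that the choice of genes did not use. Added to Il-17A, Osm lowered 4 of the 9 genes and raised 1, with 28.3% of genes called (16.2% higher and 12.2% lower). Gas1 went from 48.7 and 49.7 CPM with Il-17A alone to 9.17 and 13 CPM with both (-2.14 ± 0.44, adjusted p = 0.000952). Gli2 went from 35 and 46.1 to 5.3 and 7.8 CPM (-2.62 ± 0.35, adjusted p = 7.16e-06) and Cdon from 56.2 and 41 to 13 and 3.9 CPM (-2.53 ± 0.38, adjusted p = 3.21e-05). Boc rose from 204 and 193 to 436 and 524 CPM (1.28 ± 0.17, adjusted p = 7.84e-06). No library of one group reached the other for these 4 genes. Hhip did not overlap either, at 16.1 to 21.4 CPM with Il-17A and 5.25 to 8.6 CPM with both (-1.44). It was not called in the reported fit. It was with DESeq2 (adjusted p = 0.0471) and without the filter on low counts (adjusted p = 0.000887). Gli3 fell by 0.83 ± 0.22 (adjusted p = 0.00656), a call lost without Il-17A replicate 2 (adjusted p = 0.0538) or Osm + Il-17A replicate 1 (adjusted p = 0.0715).

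Added to TNFa, where 18.2% of genes were called (11.2% higher and 7.05% lower), Osm lowered Gli2 from 21.4 and 17.2 to 7.9 and 4.91 CPM (-1.57 ± 0.36, adjusted p = 0.00352), Cdon from 18.7 and 15.1 to 4.11 and 8.18 CPM (-1.49 ± 0.41, adjusted p = 0.0133) and Smo from 20.4 and 19.8 to 12.3 and 11.9 CPM (-0.73 ± 0.25, adjusted p = 0.0461). Boc rose from 218 and 193 to 304 and 421 CPM (0.82 ± 0.17, adjusted p = 0.00168). The groups did not overlap for these 4 genes. Gas1 was at 23.7 and 18.1 CPM without and 5.53 and 15.8 CPM with Osm (-1.01 ± 0.46, adjusted p = 0.145), a difference that passed only without Osm + TNFa replicate 2 (-1.92, adjusted p = 0.0301) or without the filter on low counts (adjusted p = 0.00359). The calls were lost without Osm + TNFa replicate 2 for Boc (adjusted p = 0.0519) and Gli2 (adjusted p = 0.055), without Osm + TNFa replicate 1 (adjusted p = 0.191) or TNFa replicate 1 (adjusted p = 0.0837) for Cdon, and without any 1 of the 4 libraries for Smo (adjusted p from 0.115 to 0.163). Added to Il-1b, Osm changed none of the 9 genes by edgeR or DESeq2, where 7.03% of genes were called (3.7% higher and 3.33% lower), and 1 gene (Gli3, 0.57 ± 0.22, adjusted p = 0.134) had an unadjusted p under 0.05. Gas1 was at 11.1 and 12.4 CPM with Il-1b and 3.38 and 17.2 CPM with both, and its log2 difference of -0.17 had a 95% interval from -1.14 to 0.79. The 3 differences were not compared with each other.

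The single cytokines other than Osm were compared with PBS, in libraries that these comparisons share. Il-1b lowered Cdon to 11.6 and 11.8 CPM (-2.51 ± 0.37, adjusted p = 2.31e-05), Gli2 to 6.35 and 13.4 CPM (-2.0 ± 0.34, adjusted p = 9.97e-05), Ptch1 to 7.24 and 3.72 CPM (-2.04 ± 0.41, adjusted p = 0.000635), Boc to 127 and 168 CPM (-0.97 ± 0.17, adjusted p = 0.000165) and Gli3 to 27.9 and 24.4 CPM (-0.70 ± 0.22, adjusted p = 0.0168). The Gli3 call was lost without Il-1b replicate 2 (adjusted p = 0.107) or PBS replicate 1 (adjusted p = 0.0813). Gas1 was at -3.27 ± 0.45, without a test since its PBS values were used in the choice. Leaving Gas1 aside, these were the genes of the 9 called with Il-1b, where 33.1% of all genes were called (13.7% lower). Boc thus stood below PBS after Il-1b and above PBS after Osm. TNFa lowered Cdon to 18.7 and 15.1 CPM (-1.98 ± 0.36, adjusted p = 0.000595), Ptch1 to 5.14 and 8.91 CPM (-1.68 ± 0.40, adjusted p = 0.00592) and Gli2 to 21.4 and 17.2 CPM (-1.04 ± 0.32, adjusted p = 0.0315). Leaving aside Gas1 (-2.43 ± 0.42, without a test), these were the genes of the 9 called with TNFa, where 14.8% of all genes were called (4.62% lower). The Ptch1 call was lost without TNFa replicate 1 (adjusted p = 0.0861) and the Gli2 call without any 1 of the 4 libraries (adjusted p from 0.0712 to 0.216). Against PBS and leaving Gas1 aside, none of the 9 genes was called with Il-17A by edgeR, where 4.95% of genes were called (2.84% higher and 2.11% lower). Boc (-0.54 ± 0.17) was called by DESeq2 (adjusted p = 0.0188) and without the filter on low counts (adjusted p = 0.0274). The Gas1 value was -1.20 ± 0.40, again without a test.

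With the Il-17A libraries as reference in place of PBS, Gas1 can be tested. Gas1 was lower after Il-1b than after Il-17A (-2.06 ± 0.45, adjusted p = 0.00166), together with Cdon (-2.05 ± 0.37, adjusted p = 0.000307) and Gli2 (-2.03 ± 0.34, adjusted p = 0.000126), where 25.4% of genes were called. Boc (-0.42, adjusted p = 0.0766), Ptch1 (-1.10, adjusted p = 0.0633) and Gli3 (-0.55, adjusted p = 0.0739) did not pass against this reference. After TNFa, Cdon was lower than after Il-17A (-1.52 ± 0.36, adjusted p = 0.0104), where 6.22% of genes were called. Gas1 (-1.23 ± 0.42, adjusted p = 0.0976), Gli2 (-1.07 ± 0.32, adjusted p = 0.0512) and Ptch1 (-0.75 ± 0.41, adjusted p = 0.348) did not pass. Of these, Cdon and Gli2 were thus lower after Il-1b under either reference.

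Between 2 h and 8 h of the mix the genes parted. Ptch1 rose from 4.39 and 3.39 to 30.7 and 35.9 CPM (3.09 ± 0.43, adjusted p = 9.19e-06) and Boc from 256 and 254 to 576 and 441 CPM (1.00 ± 0.17, adjusted p = 9.39e-05). Gli2 fell from 15.3 and 15.1 to 4.66 and 3.95 CPM (-1.81 ± 0.37, adjusted p = 0.000588) and Gli3 from 50.3 and 44.9 to 14.1 and 19.5 CPM (-1.51 ± 0.22, adjusted p = 1.82e-05). The libraries of both times did not overlap for these 4 genes, and 35.3% of all genes were called (16.6% higher and 18.7% lower). Hhip did not overlap either, at 9.39 to 11.2 CPM at 2 h and 3.22 to 3.35 CPM at 8 h (-1.64). It was not called in the reported fit. It was with DESeq2 (adjusted p = 0.0274), with RLE factors (adjusted p = 0.0478) and without the filter on low counts (adjusted p = 0.000695). Markers moved with these changes: the stromal sum was 55700 to 67476 CPM at 2 h and 36971 to 39833 CPM at 8 h (4 of 6 called lower), and the mural sum 34.1 to 56.6 and 5.26 to 6.88 CPM (3 of 5 tested called lower). Their part was not tested. Gas1 differed by 0.23 ± 0.46 and Cdon by 0.04 ± 0.40 (adjusted p = 0.954). Gli1, the other gene read as output, was at 6.21 and 7.12 CPM at 2 h and 6.22 and 7.03 CPM at 8 h (-0.01 ± 0.40, adjusted p = 0.991). The map of log2 changes gives all 9 genes over these comparisons and those that follow.

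**Figure D3:**
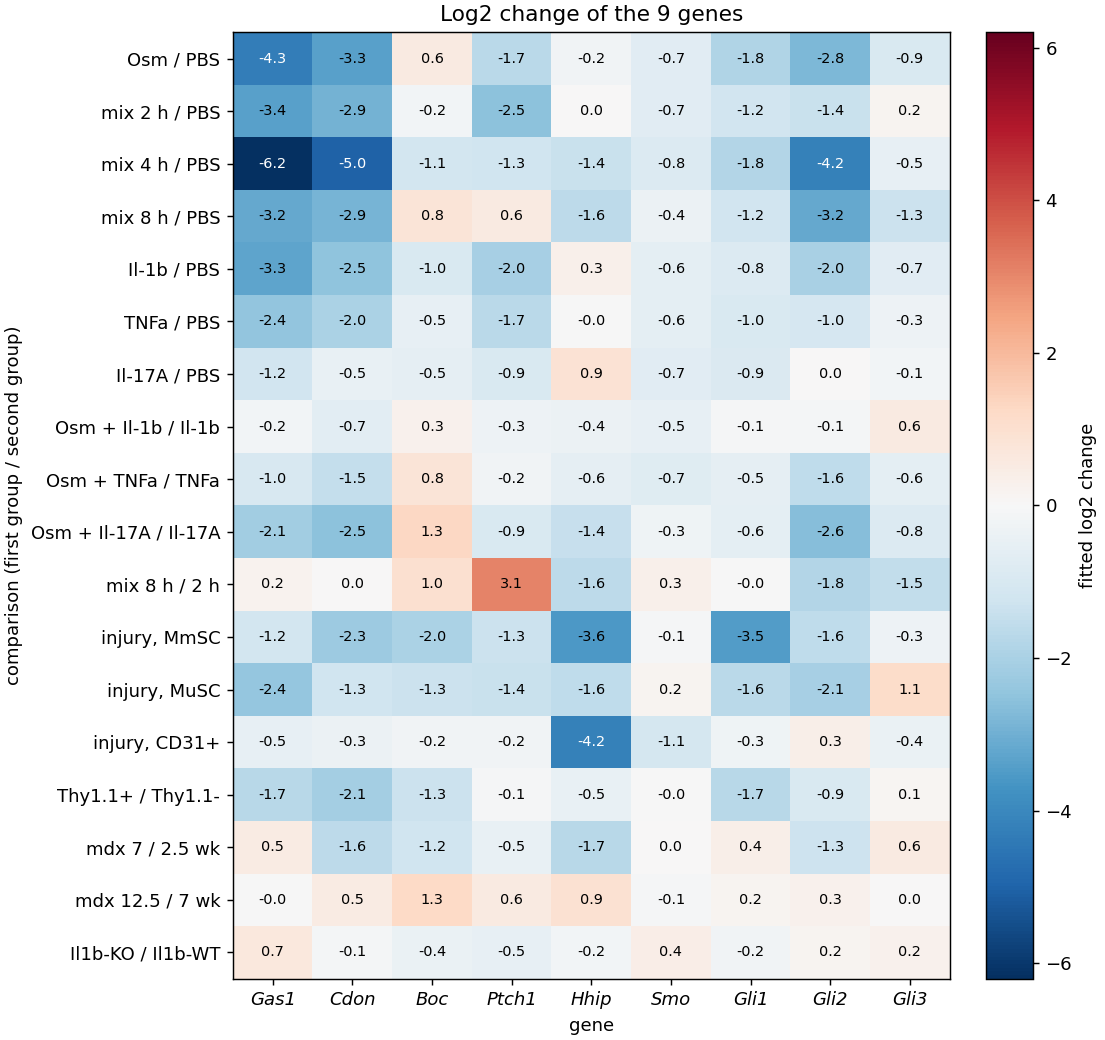
Fitted log2 change (colour and printed value) of the 9 genes (x axis) in 18 comparisons (y axis, first group over second; injury is day 1 over day 0; red higher and blue lower in the first group). Gas1, Cdon and Gli2 are blue with Osm, the mix, Il-1b and TNFa, Boc is red with Osm, and the values range from -6.17 for Gas1 after 4 h of the mix to 3.09 for Ptch1 between 2 h and 8 h; values against PBS share 2 libraries, and Hhip in CD31+ cells rests on 29 and 2 counts.

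The other genes of the pathway were described by list. Of 8 genes for ligands and their release, transcripts of the ligand Dhh were found mainly in CD31+ cells, at 10.2 to 15.7 CPM at rest and 15.4 to 30.1 CPM after injury, and at 0 to 0.225 CPM in resting MmSCs. Shh did not exceed 0.339 CPM in any library and Ihh did not exceed 1.14 CPM. Disp1, which releases ligand from the producing cell, fell after injury in MmSCs (-1.86 ± 0.25, adjusted p = 3.54e-06), MuSCs (-1.43 ± 0.26) and CD31+ cells (-0.84 ± 0.26), and was lower with Osm added to Il-17A (-1.61 ± 0.26). Gpc3, a glypican that binds ligand, fell in MmSCs after injury (-2.14 ± 0.39, adjusted p = 0.000147).

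Genes that relay the signal and build the cilium were counted next. Of 24 relay and cilium genes, 3 rose and 4 fell in MmSCs after injury, with a median log2 change of -0.21 against -0.22 over all genes, where 41.8% of all genes were called. With Osm added to Il-17A, 2 rose and 3 fell (median -0.29 against -0.01, with 28.3% of all genes called), and those that rose were Csnk1a1, which encodes casein kinase 1 alpha (1.04 ± 0.13), and Cul3, a ubiquitin ligase scaffold (1.03 ± 0.26). Evc, a ciliary partner of Smo, fell after injury in MmSCs (-1.46 ± 0.33, adjusted p = 0.00101). Among 15 genes reported elsewhere as Hedgehog targets, 11 were tested in the compartments, of which 1 rose and 6 fell in MmSCs after injury (median -1.36 against -0.22, with 41.8% of all genes called). The BMP ligand gene Bmp4 fell by 2.45 ± 0.26 and the growth factor binding protein gene Igfbp6 by 2.91 ± 0.34, while the cyclin gene Ccnd1 rose by 1.95 ± 0.20. In MuSCs 4 of the 11 rose and 5 fell (median -0.83 against -0.04, with 38.8% of all genes called). With Osm added to Il-17A, 1 of 14 targets rose and 4 fell (median -0.44 against -0.01), a share near the 28.3% called among all genes, and the transcription factor gene Osr1 rose by 2.15 ± 0.19. Many of these target genes also respond to other signals.

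The fourth comparison set Thy1.1+ against Thy1.1- MmSCs of injured Il6RD muscle. The co-receptor transcripts were lower in Thy1.1+ cells. Cdon was at 3.54, 3.03 and 3.01 CPM in Thy1.1+ libraries and 14.1, 18.6 and 8.4 in Thy1.1- libraries. Gas1 was at 3.74, 3.17 and 3.89 CPM against 11.2, 17.8 and 6.6, and Boc at 41.5, 59 and 124 against 98.3, 141 and 325. Cdon and Gas1 did not overlap between the gates, whereas Boc did and was lower in the Thy1.1+ library of each replicate number. Libraries with the same number deviated together from their group means (correlations across genes of 0.42 to 0.678), so the number was used as a block. With the block Cdon (-2.06 ± 0.33, adjusted p = 0.0014), Boc (-1.30 ± 0.11, adjusted p = 1.22e-05) and Gas1 (-1.66 ± 0.36, adjusted p = 0.011) were called, with 10.7% of the 11975 genes tested. Without the block 0 genes were called by edgeR, 0% of those tested, although 1258 had an unadjusted p under 0.05 and DESeq2 called 119, and the same 3 genes had adjusted p of 0.179, 0.447 and 0.276. Gli1, at 0.984, 0.689 and 1.06 CPM against 3, 1.86 and 4.4, did not pass with the block (-1.70 ± 0.54, adjusted p = 0.0592), nor did Gli2 (-0.73 ± 0.59, adjusted p = 0.49). Gli3, Smo and Ptch1 differed by between -0.06 and 0.13 with the block. The sum of 6 endothelial markers moved with these genes, at 7.48 to 17.1 CPM in Thy1.1+ and 26.9 to 58.8 CPM in Thy1.1- libraries, and its part was not tested.

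The fifth comparison followed MmSCs of DMDmdx mice over age. From 2.5 to 7 weeks 4 of the 9 genes fell and 1 rose, where 44.6% of 13160 genes tested were called (21.9% higher and 22.7% lower). Cdon went from 199, 138 and 160 to 56.4, 46 and 59.3 CPM (-1.62 ± 0.16, adjusted p = 3.31e-06), and Boc from 287, 163 and 250 to 77.2, 104 and 121 CPM (-1.21 ± 0.19, adjusted p = 0.000183). Hhip went from 39.8, 32.3 and 25.5 to 12.5, 9.81 and 6.64 CPM (-1.73 ± 0.26, adjusted p = 0.000102) and Gli2 from 19.7, 20.8 and 17.1 to 7.99, 8.03 and 8.01 CPM (-1.26 ± 0.23, adjusted p = 0.000585). The ages did not overlap for these 4 genes. Gli3 rose from 29.7, 31 and 30.5 to 45.5, 40.2 and 48.8 CPM (0.55 ± 0.14, adjusted p = 0.00458). Gas1 did not go with Cdon and Gli2 here: it was at 29.5, 18.5 and 24.8 CPM at 2.5 weeks and 24.5, 43.2 and 36.4 CPM at 7 weeks (0.51 ± 0.23, adjusted p = 0.0867), with adjusted p of 0.0485 without 2.5-week replicate 1 and 0.0274 without 7-week replicate 1, and 0.0181 without the filter on low counts. Ptch1 (-0.46 ± 0.39), Gli1 (0.36 ± 0.34) and Smo (0.05 ± 0.19) did not pass, although Ptch1 did without 2.5-week replicate 2 (-0.84, adjusted p = 0.0237).

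At 12.5 weeks Boc was at 241 and 240 CPM, above every 7-week library (1.25 ± 0.21, adjusted p = 0.00357), where 5.9% of genes were called. That call was lost without 12.5-week replicate 1 (adjusted p = 0.0514). None of the other 8 genes passed, with Cdon at 86.5 and 64.7 CPM (0.49 ± 0.18, adjusted p = 0.137) and Hhip at 23.2 and 14 CPM (0.95 ± 0.30, adjusted p = 0.0753). From 2.5 to 7 weeks, 8 of 13 target genes fell and 1 rose (median -0.99 against -0.02 over all genes). Of all genes tested, 44.6% were called in this comparison (21.9% higher and 22.7% lower). Among the targets, Timp3, a metalloproteinase inhibitor gene, was at -1.50 ± 0.12 and Osr1 at 1.90 ± 0.17. Gpc3 (-2.82 ± 0.13) fell as well. Tendon cell markers moved with age in these libraries: all 3 of the 4 that were tested were higher at 7 weeks, with sums of 84.5 to 562 CPM at 2.5 weeks and 3487 to 3915 CPM at 7 weeks, and Scx was at 0 at 7 weeks. Endothelial markers summed to 375 to 408 CPM at 2.5 weeks and 48.8 to 56.7 CPM at 7 weeks, with 2 of 3 tested called lower and 1 higher. Mural markers summed to 60.7 to 92.3 CPM at 2.5 weeks and 168 to 219 CPM at 7 weeks, with 2 of 6 called higher and 1 lower. The part of these markers was not tested.

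**Figure D4:**
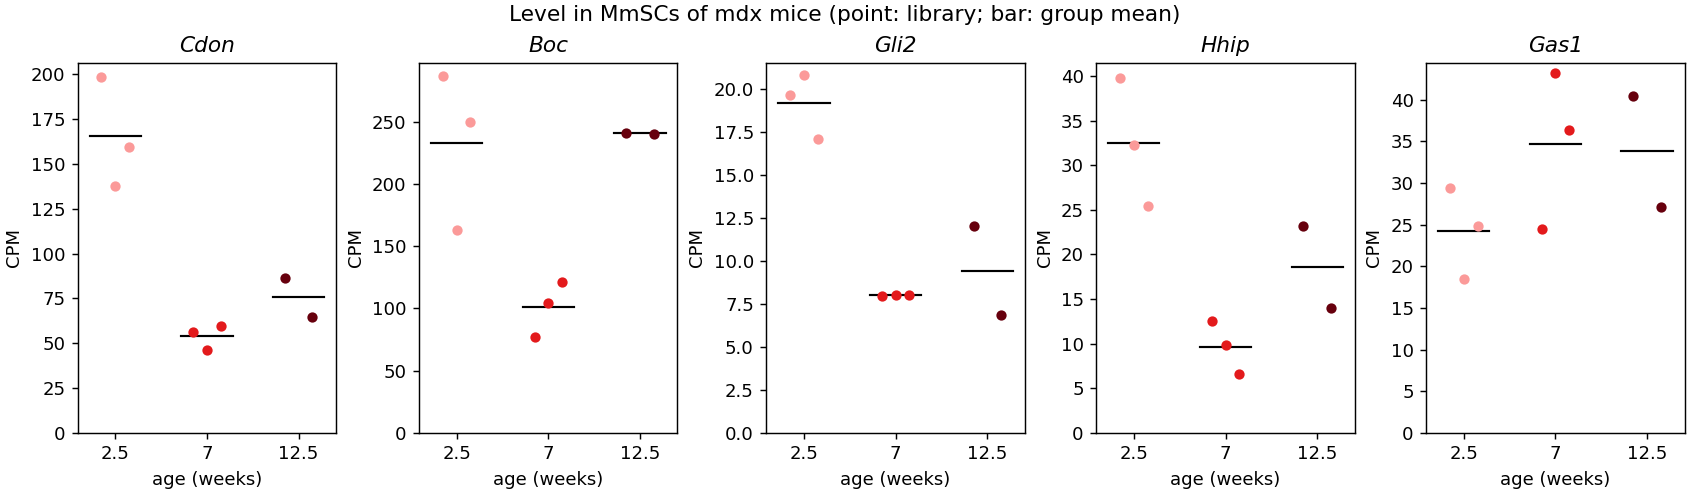
Levels of Cdon, Boc, Gli2, Hhip and Gas1 in MmSCs of DMDmdx mice (x axis: age in weeks; y axis: CPM from 0; point: library, n = 3, 3 and 2; bar: group mean). Cdon, Boc, Gli2 and Hhip are lower at 7 than at 2.5 weeks without overlap, Boc is back at 240 and 241 CPM at 12.5 weeks, and Gas1 overlaps between the ages.

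In the 2 remaining experiments none of the 9 genes passed. In whole muscle 7 days after injury, 7 of the 9 genes were tested and 0 were called with anti-Cxcl5 against IgG by edgeR or DESeq2, where edgeR called 0.03% of genes, and 1 (Smo, -0.75, adjusted p = 0.844) had an unadjusted p under 0.05. Gas1 was at 20.3, 11.4 and 11 CPM with the antibody and 11.4, 9.35 and 11.1 CPM with IgG (0.43 ± 0.29, adjusted p = 0.862). Gli1 and Hhip were too low to be tested. In MmSCs of Il1b-KO mice against Il1b-WT mice, where 1.21% of genes were called, Gas1 was at 10.3, 8.56 and 5.93 against 5.43 and 4.92 CPM (0.68 ± 0.31, adjusted p = 0.433). Boc was at 85.8, 73 and 77.5 against 95.9 and 115 CPM (-0.42 ± 0.12, adjusted p = 0.147), with an adjusted p of 0.0137 without Il1b-WT replicate 1. Both groups had Gas1 well below the 97 to 114 CPM of C57BL/6J MmSCs taken at the same time after cardiotoxin in the compartment experiment, whereas Cdon was at 22.5 to 32.6 CPM in Il1b-WT and 14.4 to 29.1 CPM there. These values come from separately scaled experiments and were not tested against each other.

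Over the 28 groups Gas1 was most like Gli2 among the 9 genes (Pearson's r = 0.92 of group means of log2(CPM + 2)), followed by Cdon (r = 0.87), and Gli2 with Cdon had r = 0.86. Ptch1 had r = 0.36 with Gas1 and 0.08 with Gli1. Among 13050 genes that reached a mean of 3 on this scale in at least 1 group, the genes most like Gas1 were Wdr54 (0.92), Gli2 (0.92), Lyplal1 (0.90), Rtl3 (0.88) and Vstm4 (0.88). For Gli1 they were Plekha5 (0.93), Abca8b (0.91), Abat (0.90), Chrd (0.89) and Nbl1 (0.88), and for Ptch1 Zfp580, Hoxa5, Foxo1, Hoxa7 and Plcg1, between 0.84 and 0.86. The groups share experiments, depth and cell gates, and the CD31+ and CD45+ groups, where Gas1, Cdon and Gli2 are all near 0, weigh on each value. These are descriptions without a test.

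**Figure D5:**
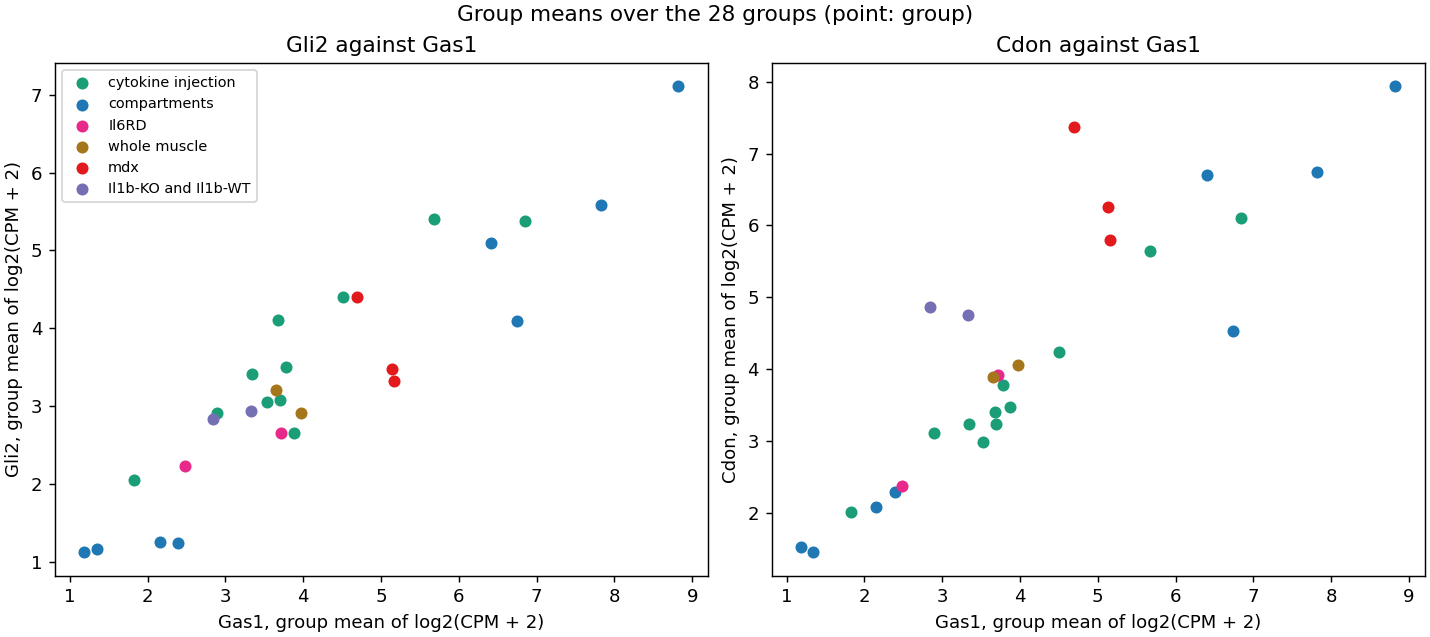
Group means of log2(CPM + 2) of Gli2 (left) and Cdon (right) against Gas1 over the 28 groups (point: group; colour: experiment). Both rise along Gas1 (r = 0.92 and 0.87), the 2.5-week DMDmdx group and the Il1b-WT group lie farthest above the trend for Cdon, and the CD31+ and CD45+ groups are the points at the lower left.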

How the data were processed

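The deposited table holds read counts per gene and library. Per the submitters' processing notes, the authors aligned reads to mm10/GRCm38 with STAR 2.7.3a and counted them with featureCounts. The strand setting of the counting was not given in the sources used here. Each of the 6 experiments was fitted separately in edgeR 4.0.16 (R 4.3.3) by the quasi-likelihood test, after filterByExpr (minimum count 10) and TMM scaling, p-values adjusted by Benjamini-Hochberg across every gene tested, and calls made at 0.05. SE is the log2 change divided by the root of F. Between 11975 and 16374 genes were tested per experiment, and the tests were checked on simulated data. Counting intervals are exact at 95%. Libraries were grouped by the labels. The 9 genes and the gene and marker lists were chosen with earlier results of these data known. Beyond the 9 genes, up to 4 called genes with the smallest p per list and comparison, and the 5 most correlated genes of Gas1, Gli1 and Ptch1, could be named, along with markers and Il1b. Replicate numbers were taken to pair libraries only in the Thy1.1 experiment, where each same-numbered pair correlated above 0.1 (0.42 to 0.678). Alternatives were RLE factors, DESeq2 1.42.0, no filter, the replicate block, leaving out each library, Il-17A as reference, CPM without TMM, and Spearman correlation. Promoters are from RefSeq. A gene of the lists is not reported here by name, and the list counts include it.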

Additional observations from a re-analysis of the deposited data

Results flagged for a closer look

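The injury response of Boc and Cdon differed between MmSCs and CD31+ cells by the interaction term of the edgeR fit. For Boc the difference of the log2 changes was -1.75 ± 0.30 (adjusted p = 0.000421), with all 3 injured MmSC libraries below all 3 uninjured ones and overlapping CD31+ groups. For Cdon it was -1.93 ± 0.53 (adjusted p = 0.0191), and that call was lost when any of 4 libraries was left out (adjusted p from 0.0563 to 0.18).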

How the results depend on the processing

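Of 2122 values of the 9 genes under alternative settings, 2014 kept their side of the threshold, 52 passed only under the alternative and 56 passed only in the fit as reported. No value called in either fit changed direction. Values called in neither could change sign, such as Gli1 after Il-1b (-0.85 against PBS and 0.07 against Il-17A). The replicate block changed 3 of these calls, all in the Thy1.1 comparison (Gas1, Cdon and Boc), where genes called went from 0 to 1286 with the block, 119 with DESeq2 and 360 without the filter. With anti-Cxcl5, 4 genes called became 7 with DESeq2, 159 without the filter and 0 with the block. Between Il1b-KO and Il1b-WT, 146 became 232 with DESeq2 and 594 without the filter. TNFa called 2361 genes against PBS and 993 against Il-17A. Leaving out each library in turn gave 100 to 334 genes for Il-17A (790 with all libraries), 7 to 670 for Il1b-KO, 522 to 1219 for Osm added to Il-1b (1122), 1817 to 2154 for Osm added to TNFa (2909), 1182 to 1579 for TNFa, 0 to 2 for Thy1.1, 0 to 4 for anti-Cxcl5 and 137 to 481 for 12.5 against 7 weeks (777). Where this left 1 library in a group, its spread was assumed to equal that of the others. By Spearman correlation, 3 of the 5 genes most like Gas1, 3 for Gli1 and 0 for Ptch1 were shared with the Pearson choice. Without TMM, 49 group levels moved by more than 1 SD (the mix at 4 h has no SD), and the largest difference was 27.2%. Gli1 and Hhip were too low to be tested in whole muscle.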
